A study of Homo sapiens with 10 samples.

Results

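The 6 genes described here are the subunits of respiratory chain complexes III and IV and of ATP synthase (complex V) that are encoded in the mitochondrial genome: MT-CO1 (ENSG00000198804), MT-CO2 (ENSG00000198712) and MT-CO3 (ENSG00000198938) of complex IV, MT-CYB (ENSG00000198727) of complex III, and MT-ATP6 (ENSG00000198899) and MT-ATP8 (ENSG00000228253) of ATP synthase. They are 6 of 20289 genes in the deposited table, and all 6 passed the filter on low values and were tested. MT-CO2 was chosen from its measured level, as the most abundant gene of the PANC-1 libraries with imidazole ketone erastin (IKE), and the other 5 were selected by compartment to see whether they follow it. For MT-CO2 the comparison of IKE with DMSO in PANC-1 is therefore a description without a test.

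Ribosome footprints, the short stretches of mRNA that ribosomes shield from nuclease, were sequenced from CFPAC-1 and PANC-1, established lines of human pancreatic ductal adenocarcinoma. CFPAC-1 was measured in 2 libraries with 0.1% DMSO and 2 with 10 µM IKE, and PANC-1 in 2 libraries with 0.1% DMSO and 4 with 1 µM IKE. IKE is an erastin derivative that blocks cystine import and induces ferroptosis, an iron-dependent death by lipid peroxidation. Dead cells and debris were washed away, so the libraries hold surviving cells, and line and dose change together. The treatment label gives 24 h of exposure, whereas the extraction protocol describes treatment over consecutive days. Each line is a single culture model, and the labels call its replicates biological without saying how the cultures were separated.

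Human mitochondria keep a small circular genome whose genes are transcribed as long polycistronic RNAs, cut into single messages and translated by the organelle's own ribosomes. All protein products of that genome are core subunits of oxidative phosphorylation and assemble with partners made in the cytosol. Complex III passes electrons from ubiquinol to cytochrome c, complex IV passes them from cytochrome c to oxygen, and ATP synthase uses the proton gradient to make ATP. Cycloheximide, which was used to arrest ribosomes here, acts on cytosolic ribosomes and not on mitochondrial ones.

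In GRCh38 (RefSeq, release p14) the 6 genes lie on the mitochondrial chromosome and are 6 of its 13 protein-coding genes. MT-CO1 spans 5904 to 7445, MT-CO2 7586 to 8269, MT-ATP8 8366 to 8572, MT-ATP6 8527 to 9207, MT-CO3 9207 to 9990 and MT-CYB 14747 to 15887. The first 5 follow each other closely, while 4756 bases separate MT-CO3 from MT-CYB. MT-ATP8 and MT-ATP6 share 46 bases of a common message, so footprints there cannot be assigned to either gene alone, and the split between these genes is uncertain. RefSeq also lists nuclear pseudogene copies of every one of them: 58 of MT-CO1, 47 of MT-CO3, 45 of MT-CYB, 34 of MT-CO2, 31 of MT-ATP6 and 4 of MT-ATP8. How reads that match both places were assigned is not given in the sources used here, and the copies' own values were not analysed here.

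Levels are in FPKM, a unit corrected for the length of the gene and the size of the library, so genes can be compared with each other. The depth of a library relative to CFPAC-1 DMSO replicate 1, read from the steps of low FPKM values, was 0.917 to 1.174 in the other CFPAC-1 libraries and 0.21 to 0.875 in PANC-1. One PANC-1 library held the most signal of genes abundant in CFPAC-1. A set of 26 genes was chosen that reached 200 FPKM in all CFPAC-1 libraries but was listed at 0 in DMSO replicate 2 of PANC-1. Its summed level in PANC-1 IKE replicate 4 was 0.87% of that in CFPAC-1. DMSO replicate 2 is at 0% by this choice, and the other PANC-1 libraries had 0.002% to 0.213%. A separate check of 13 levels and ratios of the 6 genes flagged no PANC-1 IKE library as an outlier. Results in PANC-1 are therefore also given without replicate 4. The identity of the lines was not checked against marker genes, because the deposited IDs could be paired with names only for the 6 genes. In lysates of whole cultures, fewer cells with a given footprint and fewer footprints per cell cannot be told apart.

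MT-CO1 is the catalytic subunit of complex IV, which binds heme and copper. The CFPAC-1 controls had 675 and 1130 FPKM and the CFPAC-1 IKE libraries 884 and 1460 FPKM, so the groups overlapped. The PANC-1 controls had 9406 and 11751 FPKM, and IKE replicates 1 to 4 had 11260, 27720, 18830 and 42613 FPKM. IKE replicate 1 lay inside the DMSO range and the other 3 IKE libraries lay above it.

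MT-CO2, whose copper centre takes the electrons from cytochrome c, had the widest spread of levels over the libraries. CFPAC-1 controls measured 168 and 232 FPKM, compared with 468 and 444 FPKM under IKE. PANC-1 controls measured 6887 and 10013 FPKM, compared with 26462, 66389, 47180 and 107524 FPKM for IKE replicates 1 to 4. Both IKE groups lay wholly above their DMSO group. Among all genes it ranked between 1061 and 1417 in CFPAC-1 DMSO, 470 and 496 in CFPAC-1 IKE, 4 and 13 in PANC-1 DMSO, and 1 in all 4 PANC-1 IKE libraries. There it exceeded the next gene 1.419-fold, 2.019-fold, 2.052-fold and 2.523-fold in IKE replicates 1 to 4.

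MT-CO3 is the third core subunit of complex IV and carries no redox centre. CFPAC-1 had 56.6 and 124 FPKM in the controls, set against 130 and 208 FPKM under IKE. PANC-1 had 4343 and 4855 FPKM in the controls, set against 6008, 17692, 10809 and 26921 FPKM under IKE. The groups did not overlap in either line, although in CFPAC-1 the nearest values were 124 and 130 FPKM.

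MT-CYB encodes cytochrome b, the one subunit of complex III made in mitochondria. Its CFPAC-1 levels were 70.3 and 138 FPKM in controls, then 151 and 245 FPKM under IKE. Its PANC-1 levels were 3531 and 3998 FPKM in controls, then 4667, 13061, 9817 and 19783 FPKM under IKE. The IKE values lay above the DMSO values in both lines.

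MT-ATP6 is the subunit that forms the proton path of ATP synthase beside the rotating ring, and MT-ATP8 is a small membrane subunit next to it. MT-ATP6 was the lowest of the 6 genes in 9 of 10 libraries. CFPAC-1 controls held 22.9 and 58.6 FPKM of it and CFPAC-1 under IKE 49.3 and 84.7 FPKM, which overlap. PANC-1 controls held 1611 and 1939 FPKM and PANC-1 under IKE 2141, 4512, 3293 and 10458 FPKM, which do not. MT-ATP8 differed from it in that IKE and DMSO overlapped in both lines. In CFPAC-1 the IKE values of MT-ATP8, 449 and 440 FPKM, lay between those of the controls, 311 and 527 FPKM. In PANC-1 its controls stood at 3423 and 4598 FPKM, and of the IKE values 4297, 7798, 4893 and 7996 FPKM the first lay between them.

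**Figure D1:**
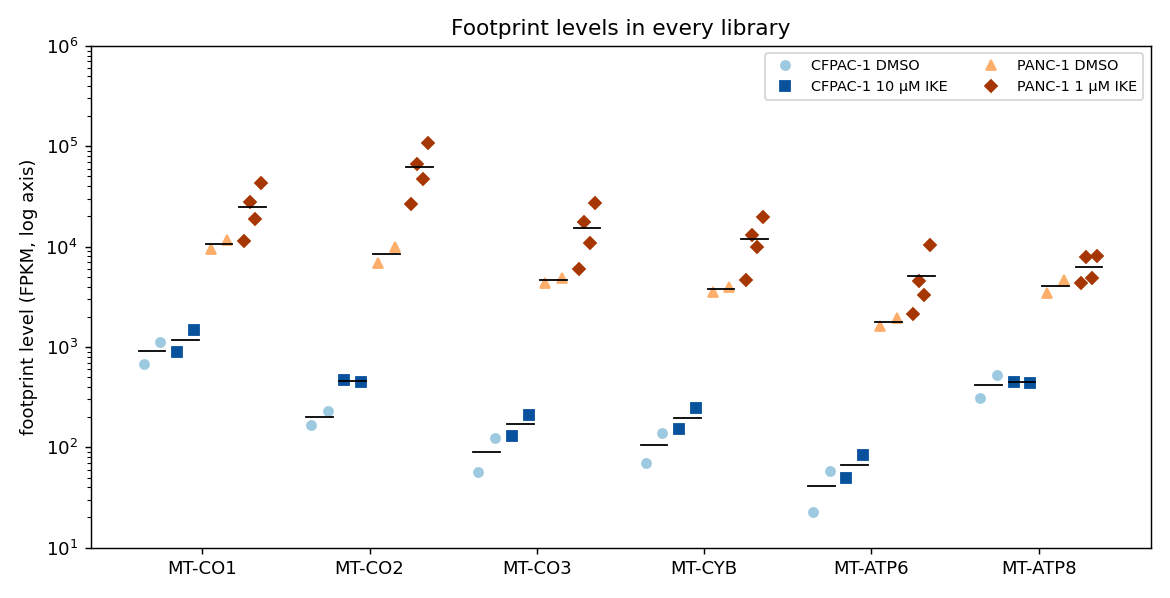
Footprint level in FPKM on a log axis for each of the 6 genes, 1 point per library and 1 colour and marker per group, with the group mean as a black line. The PANC-1 libraries lie above all CFPAC-1 libraries for every gene, and among the PANC-1 IKE libraries MT-CO2 reaches 107524 FPKM.

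The order of the mean levels differed between the groups. In CFPAC-1 DMSO it was MT-CO1 (902 FPKM ± 322, SD, n = 2), MT-ATP8 (419 ± 152), MT-CO2 (200 ± 45), MT-CYB (104 ± 48), MT-CO3 (90.2 ± 47.6) and MT-ATP6 (40.7 ± 25.3), and the ranges of the last 3 overlapped with their neighbours. In CFPAC-1 IKE, MT-CO2 (456 ± 16.7) stood level with MT-ATP8 (445 ± 5.8) below MT-CO1 (1172 ± 407). In PANC-1 DMSO the order was MT-CO1 (10579 ± 1659), MT-CO2 (8450 ± 2210), MT-CO3 (4599 ± 362), MT-ATP8 (4010 ± 831), MT-CYB (3764 ± 330) and MT-ATP6 (1775 ± 232). Ranges overlapped between MT-CO1 and MT-CO2 and among MT-CO3, MT-ATP8 and MT-CYB. In PANC-1 IKE, MT-CO2 (61889 ± 34517, n = 4) came first, before MT-CO1 (25106 ± 13471), MT-CO3 (15357 ± 9078), MT-CYB (11832 ± 6328), MT-ATP8 (6246 ± 1923) and MT-ATP6 (5101 ± 3700). Each range overlapped with the next, but within a library MT-CO2 exceeded MT-CO1, MT-CO1 exceeded MT-CO3, MT-CO3 exceeded MT-CYB and MT-CYB exceeded MT-ATP8 in 4 of 4 libraries.

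The first comparison asked how the lines differ without IKE. All 6 genes were higher in PANC-1 than in CFPAC-1 with DMSO and all 6 were called (limma with Benjamini-Hochberg adjustment over 13125 genes, adjusted p under 0.05), where 15.1% of all genes were called higher. All 6 also had non-overlapping groups, against 33.8% of genes that lay wholly higher in PANC-1. The differences fell into a larger and a smaller class. MT-CO3 was higher by 5.76 ± 0.63 on the log2 scale (SE; limma adjusted p = 6.87e-05), which is 54.1-fold. MT-ATP6 was higher by 5.55 ± 0.66 (adjusted p = 0.000126), MT-CO2 by 5.39 ± 0.55 (adjusted p = 4.51e-05) and MT-CYB by 5.24 ± 0.59 (adjusted p = 8.82e-05), which are 46.9-fold, 41.9-fold and 37.7-fold by limma. MT-CO1 was higher by 3.59 ± 0.57 (12.0-fold; limma adjusted p = 0.000828) and MT-ATP8 by 3.29 ± 0.39 (9.78-fold; adjusted p = 0.000123). The median of the 6 was 5.31, and that of the 5 without MT-CO2 was 5.24, against -0.028 over all genes tested. MT-CO2 was chosen for a high level in PANC-1 with IKE, which favours a higher value in PANC-1 here. Its call and p-value therefore support nothing further, and the comparison rests on the other 5. The gap between the classes was not tested. Relative depth differed along with the line, at 0.507 and 0.328 in the PANC-1 controls against 1 and 0.917 in the CFPAC-1 controls. The part of depth in these differences was not tested.

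The second comparison asked whether the other genes follow MT-CO2 in PANC-1 with 1 µM IKE. All 6 fold changes were above 0, and none of the 5 tested genes was called, where 0.0152% of all genes were. MT-CO2 had the largest value, a log2 fold change of 2.72 ± 0.48 (SE), or 6.58-fold. MT-CO3 had 1.53 ± 0.54 (limma adjusted p = 0.2), MT-CYB 1.47 ± 0.51 (adjusted p = 0.197) and MT-ATP6 1.27 ± 0.57 (adjusted p = 0.285). MT-CO1 had 1.09 ± 0.49 (limma adjusted p = 0.284) and MT-ATP8 0.60 ± 0.34 (adjusted p = 0.382). The 95% intervals of limma ran from 0.33 to 2.73 for MT-CO3 and from -0.15 to 1.35 for MT-ATP8.

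Before adjustment, 4 of the 5 genes had a limma p under 0.05, where 8.01% of all genes were higher at that level. In the fit of PANC-1 alone 3 of 5 did (MT-CO3, MT-CYB and MT-ATP6), against 5.38% of genes. The groups did not overlap for those 3 of 5, against 10.2% of genes that lay wholly higher with IKE. The median log2 fold change of the 5 was 1.27, against -0.02 over all genes. Because the 6 genes are cut from common precursor RNAs and were counted in the same libraries, these counts are not independent of each other. Without IKE replicate 4 the values were 2.39 for MT-CO2, 1.19 for MT-CO3, 1.17 for MT-CYB, 0.84 for MT-ATP6, 0.78 for MT-CO1 and 0.46 for MT-ATP8. Without replicates 2 and 4, the shallowest libraries, they were 2.09, 0.81, 0.85, 0.59, 0.47 and 0.21 in the same order.

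The third comparison asked the same in CFPAC-1 with 10 µM IKE, in libraries the choice of MT-CO2 did not use. No gene of the 6 was called, where 0.00762% of all genes were, and none had an unadjusted limma p under 0.05, where 0.907% of genes were higher at that level. The log2 fold changes were all above 0. MT-CO2 again had the largest, 1.203 ± 0.549 (SE, 2.30-fold; limma adjusted p = 1), with a 95% interval from -0.02 to 2.42. MT-CO3 had 0.97 ± 0.63, MT-CYB 0.95 ± 0.59, MT-ATP6 0.80 ± 0.66, MT-CO1 0.38 ± 0.57 and MT-ATP8 0.14 ± 0.39, each with a limma adjusted p of 1. The value of MT-ATP8 was -0.24 without DMSO replicate 1.

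The shared model uses a spread that PANC-1 widens for MT-CO2, whose residual SD on the log2 scale was 0.761 in PANC-1 but 0.234 in CFPAC-1. In the fit of CFPAC-1 alone the SE of MT-CO2 was 0.17 and its unadjusted limma p was 0.00025, with an adjusted p of 0.119. MT-CYB and MT-CO3 had unadjusted limma p-values of 0.0314 and 0.0407 in that fit, with limma adjusted p-values of 0.347 and 0.372. That makes 3 of 6 genes under the unadjusted threshold, where 6.02% of all genes were higher at that level. The groups did not overlap for these 3 genes, against 20.2% of genes that lay wholly higher with IKE. The median of the 6 log2 fold changes was 0.88, against -0.011 over all genes.

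**Figure D2:**
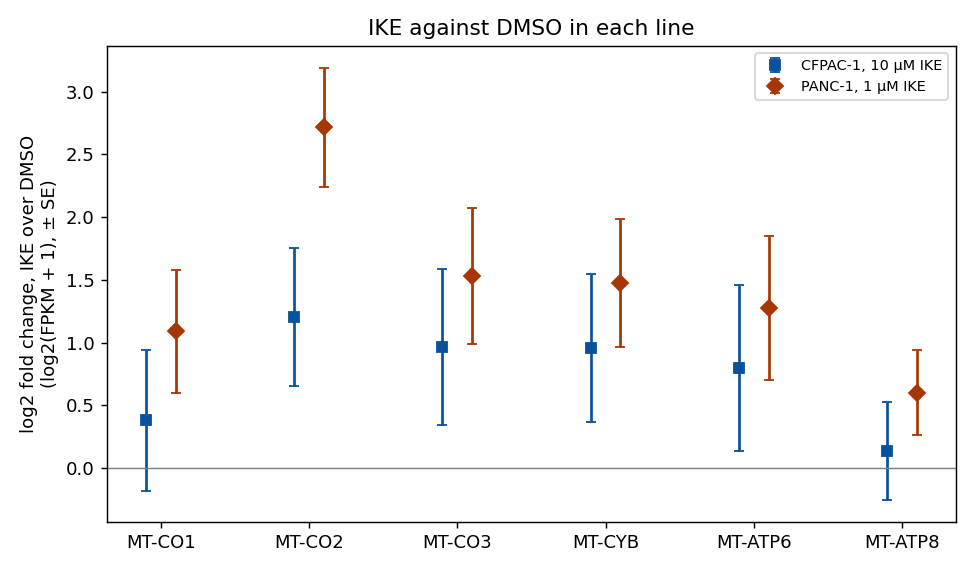
Log2 fold change of IKE over DMSO on the log2(FPKM + 1) scale with its SE from limma, for CFPAC-1 (squares, 2 against 2 libraries) and PANC-1 (diamonds, 4 against 2 libraries). MT-CO2 is highest in both lines (1.203 and 2.718) and MT-ATP8 lowest (0.14 and 0.60), and no tested gene passed the adjusted threshold.

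The fourth comparison set the IKE effects of the lines against each other, with the dose changing along with the line. None of the 5 tested genes was called, where 0.0305% of all genes were, and none had an unadjusted limma p under 0.05, where 3.65% of genes were higher at that level. The effect in PANC-1 exceeded that in CFPAC-1 by 0.71 ± 0.75 (SE) for MT-CO1 on the log2 scale, 0.57 ± 0.83 for MT-CO3, 0.52 ± 0.78 for MT-CYB, 0.47 ± 0.88 for MT-ATP6 and 0.47 ± 0.52 for MT-ATP8, with limma adjusted p from 0.826 to 0.914. The widest 95% interval, that of MT-ATP6, ran from -1.47 to 2.42, so differences of a few fold in either direction were not detectable. For MT-CO2 the difference was 1.52 ± 0.73, given without a test.

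Ratios between genes of the same library do not depend on how the libraries were scaled. Those of MT-CO2 in PANC-1 describe the level it was chosen for and support nothing further. Its level relative to MT-CO1 was 0.732 and 0.852 in PANC-1 controls, compared with 2.35, 2.395, 2.51 and 2.52 for IKE replicates 1 to 4. The 4 IKE libraries spanned 26462 to 107524 FPKM in the level of MT-CO2 itself but held this ratio at 2.44 ± 0.08 (SD, n = 4), against 0.792 ± 0.085 (n = 2) with DMSO. In CFPAC-1 the ratio was 0.249 and 0.205 with DMSO and 0.529 and 0.304 with IKE. IKE values lay above DMSO values in both lines, by 3.09-fold in PANC-1 and 1.775-fold in CFPAC-1 as ratios of geometric means. MT-CO2 made up 23.6% and 27.0% of the summed FPKM of the 6 genes in PANC-1 DMSO and 48.3% to 49.9% in PANC-1 IKE. In CFPAC-1 it made up 12.9% and 10.5% with DMSO and 22.0% and 15.4% with IKE.

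The CFPAC-1 libraries were not used to choose MT-CO2. With IKE it was there higher relative to MT-CO3 by 1.175-fold, to MT-CYB by 1.186-fold and to MT-ATP6 by 1.309-fold, all with overlapping groups, and relative to MT-ATP8 by 2.10-fold without overlap. MT-CO3 and MT-CYB were also higher relative to MT-ATP8, by 1.789-fold and 1.773-fold in CFPAC-1 and 1.904-fold and 1.831-fold in PANC-1, without overlap in either line. Of the 10 pairs without MT-CO2, 5 did not overlap in CFPAC-1 and 5 in PANC-1. Of the 5 pairs with MT-CO2, 2 did not overlap in CFPAC-1 and 5 in PANC-1. The share over other gene pairs was not computed, and separation is common with so few libraries, so these ratios are a description.

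MT-CO3 relative to MT-CYB was 1.23 and 1.21 with DMSO and 1.29, 1.35, 1.10 and 1.36 with IKE in PANC-1, and 0.805 and 0.895 with DMSO and 0.864 and 0.849 with IKE in CFPAC-1. The groups overlapped in both lines. MT-CO3 relative to MT-CO1 was 0.462 and 0.413 with DMSO and 0.534, 0.638, 0.574 and 0.632 with IKE in PANC-1, so the groups did not overlap although the shift was 1.36-fold. In CFPAC-1 the same ratio was 0.0839 and 0.110 with DMSO and 0.148 and 0.142 with IKE, a shift of 1.51-fold. MT-ATP6 relative to MT-CO1 overlapped between the PANC-1 groups, at 0.171 and 0.165 with DMSO and 0.190, 0.163, 0.175 and 0.245 with IKE.

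MT-ATP8 had the smallest fold change of the 6 in both lines. Relative to MT-ATP6, with which it shares a message, it was at 2.13 and 2.37 with DMSO and 2.01, 1.73, 1.49 and 0.765 in IKE replicates 1 to 4 of PANC-1, where every IKE value lay below the DMSO values. In CFPAC-1 the ratio was 13.6 and 8.99 with DMSO and 9.11 and 5.20 with IKE, which overlap. The ratio in PANC-1 IKE replicate 4 was the only one of the 10 below 1. The short coding length of MT-ATP8 (207 bases) makes its FPKM the most sensitive of the 6 to the effective length used, which is not given in the sources used here.

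**Figure D3:**
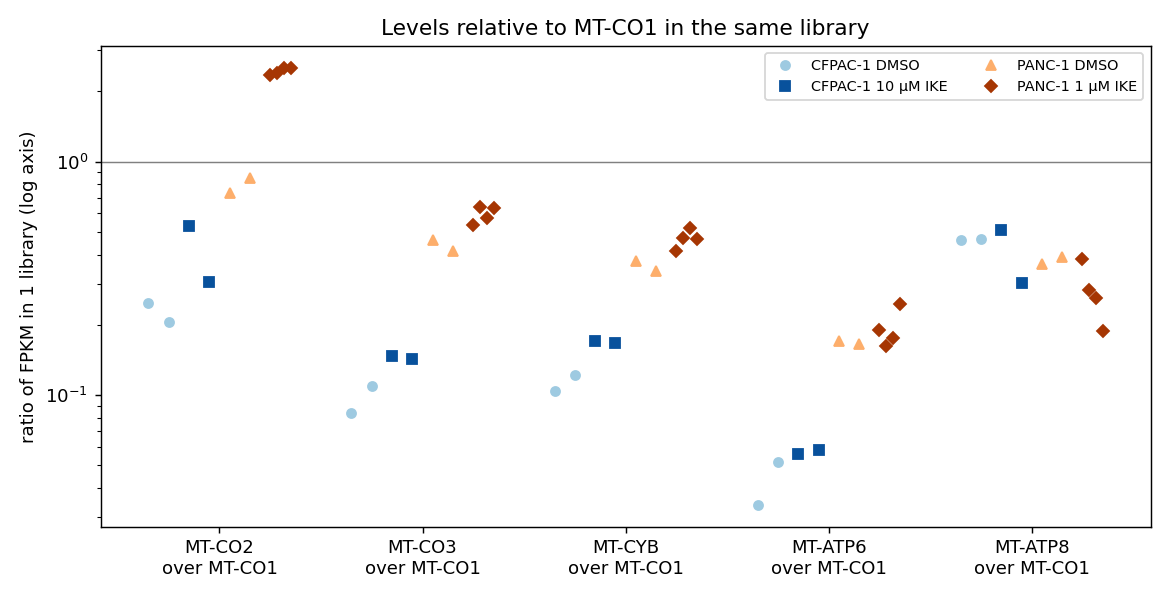
FPKM of 5 genes divided by that of MT-CO1 in the same library, on a log axis, with 1 point per library and a grey line at 1. MT-CO2 lies at 2.35 to 2.52 in the 4 PANC-1 IKE libraries and below 1 in the other 6 libraries, while the other genes stay below 1 in all 10.

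Together the 6 genes took a larger part of the PANC-1 libraries. They held 0.104% and 0.174% of summed FPKM in CFPAC-1 DMSO and 0.172% and 0.234% in CFPAC-1 IKE. In PANC-1 they held 2.08% and 3.15% with DMSO and 4.27%, 10.0%, 7.16% and 16.7% in IKE replicates 1 to 4. MT-CO2, which was chosen for its level in the PANC-1 IKE libraries, made up 48.3% to 49.9% of the sum there. The other 5 genes held 1.59% and 2.30% in the PANC-1 controls, compared with 2.21%, 5.19%, 3.595% and 8.35% for IKE replicates 1 to 4. Over these 5 genes the groups overlapped, since IKE replicate 1 lay below DMSO replicate 2. In CFPAC-1 they held 0.0905% and 0.156% with DMSO and 0.134% and 0.198% under IKE, which also overlap. In IKE replicates 2, 3 and 4, 4 of the 6 genes (MT-CO2, MT-CO1, MT-CO3 and MT-CYB) ranked among the 10 most abundant of the library, against 2 in IKE replicate 1 and 1 and 2 in the DMSO libraries.

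This share moved with depth among the PANC-1 libraries. Relative depth was 0.507 and 0.328 for the controls, compared with 0.875, 0.24, 0.5 and 0.21 for IKE replicates 1 to 4, and within each group a shallower library had a larger share, with or without MT-CO2. At nearly the same depth, the 5 genes without MT-CO2 held 1.59% in DMSO replicate 1 and 3.595% in IKE replicate 3. This is a single pair of libraries, picked for its depth and not planned, and it is given as a description. The part of depth in these shares was not tested. The ratio of MT-CO2 to MT-CO1 varied by 3.5% (coefficient of variation of MT-CO1 over MT-CO2, n = 4) over these IKE libraries. Other pairs varied more, with 32.2% for MT-CO2 over MT-ATP8 and 48.3% for MT-ATP6 over MT-ATP8. MT-CO2 was chosen from these libraries, so its steady ratio to MT-CO1 is a description and says nothing about depth.

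**Figure D4:**
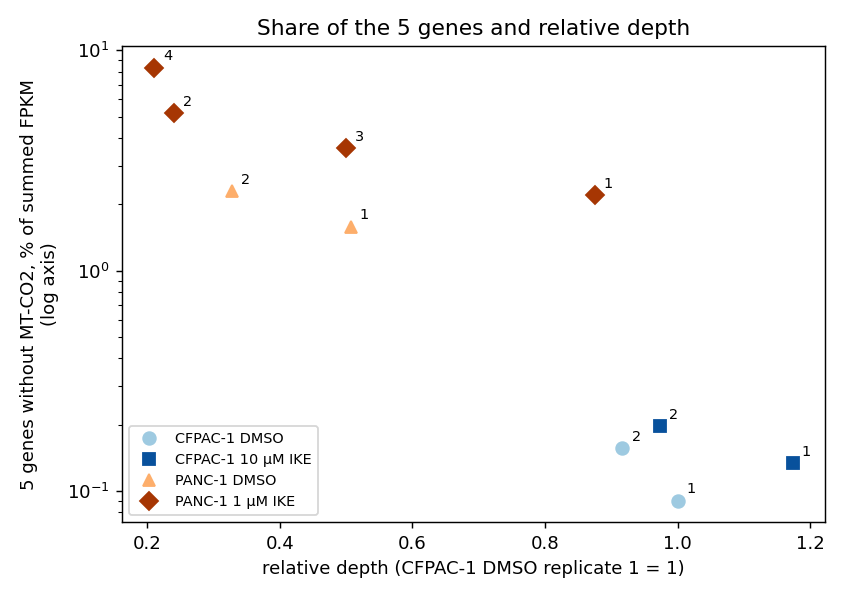
Percent of summed FPKM held by the 5 genes other than MT-CO2, on a log axis, against the depth of the library relative to CFPAC-1 DMSO replicate 1, with replicate numbers beside the points. The PANC-1 IKE libraries (2.21% to 8.35%) overlap with the PANC-1 DMSO libraries (1.59% and 2.30%), and the shallowest IKE library has the highest share.

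The log2 levels of the 6 genes were correlated across the libraries. The log2 level of each correlated with the mean of the other 5 at 0.988 (MT-CO2) to 0.999 (MT-CO3) over the 10 libraries, and at 0.932 (MT-ATP8) to 0.995 (MT-CO3) over the 6 PANC-1 libraries. Most of the first correlation comes from the difference between the lines, and the libraries share depth and scaling, so these values are a description. They also include MT-CO2, which was chosen from the PANC-1 IKE libraries. A high correlation does not mean equal shifts. Without MT-CO2 involved, MT-CO3 relative to MT-ATP8 was 1.904-fold higher with IKE in PANC-1. Genes outside the 6 were then compared with their mean. Other genes of the mitochondrial genome were not removed from this comparison and could be among the closest. Among 6592 such genes averaging 20 FPKM or more, the closest was ENSG00000198763. Its Pearson correlation was 0.9996 over the 10 libraries and 0.997 within PANC-1. This gene was at 33.3 and 60.0 FPKM in CFPAC-1 DMSO, 60.0 and 102 FPKM in CFPAC-1 IKE, 1923 and 2255 FPKM in PANC-1 DMSO and 2897, 8234, 4733 and 13477 FPKM in PANC-1 IKE. The next was ENSG00000117360, with correlations of 0.996 and 0.988, at 8.19 to 10.5 FPKM in CFPAC-1 and 36.5 to 90.2 FPKM in PANC-1. Over the 10 closest genes the correlation within PANC-1 ran from 0.877 to 0.997. In PANC-1 IKE replicate 1, ENSG00000198695 (rank 4, 2847 FPKM) lay below its controls (3654 and 4113 FPKM). So did ENSG00000198886 (rank 6), at 4005 FPKM against 5034 and 6010 FPKM. In the other IKE replicates both lay above their controls. In all, 271 of the 6592 genes had a correlation above 0.95 over the 10 libraries.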

How the data were processed

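The deposited table holds FPKM values by the authors for 20289 genes and 10 libraries, per the file headers, with 1 column per library. Per the submitters' processing notes, RSEM, STAR, DESeq2, fastp and Bowtie2 (2.2.8) were used with GRCh38, in roles that are not stated. Annotation, strand and footprint lengths: not given in the sources used here. The 6 symbols are those paired with the IDs when the genes were chosen, and RefSeq lists all 6 under other symbols. No other ID was paired with a name, so the planned lists of nuclear-encoded subunits, assembly and translation factors, nuclear copies and markers were not analysed here.

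The 13125 genes that averaged 1 FPKM or more were fitted on log2(FPKM + 1) with limma 3.58.1 in R 4.3.3 (4 groups, 1 model, eBayes with trend, Benjamini-Hochberg). Fold changes are on that scale, which understates those of low genes. The residual SD of the tested genes had a median of 0.481 in PANC-1 and 0.18 in CFPAC-1, so the shared spread is narrow for the one and wide for the other, and fits of each line alone stand beside it. Members and lists were chosen with earlier results of these data known. All 6 genes are named. Of similar genes the rule named 10, which have IDs but no names here, and not all of them are printed. The fit and the depth estimate were run on simulated data, with outcomes not reported here. The depth simulation gave every library the same underlying levels, so it did not test depth between lines that differ. The depth estimates rest on 94 to 114 low genes in the other CFPAC-1 libraries and on 26 to 43 in PANC-1. Depth is relative only, since total counts are unknown.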

Additional observations from a re-analysis of the deposited data

How the results depend on the processing

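The number of the 6 genes called stayed at 0 for IKE in CFPAC-1, 0 for IKE in PANC-1, 0 for the difference of the effects and 6 for PANC-1 against CFPAC-1 with DMSO under all 23 or 24 alternatives of each (pseudocount, filter, scaling, weights, separate fits, libraries left out, the replicate block, no trend). Adjusted p reached 0.0751 at the lowest for IKE in PANC-1 (MT-CYB), 0.0828 in CFPAC-1 (MT-CO2) and 0.0171 at the highest for the difference of the lines (MT-CO1). The 6 called between the lines include MT-CO2, whose higher level in PANC-1 was favoured by the choice. Signs turned only among uncalled values. MT-ATP8 in CFPAC-1 was -0.244 without DMSO replicate 1 (leave-one-out range -0.244 to 0.514). For the difference of the effects, MT-CO1 was -0.088 with quantile normalization, MT-CO3 -0.154, MT-CYB -0.105 and MT-ATP6 -0.211 without PANC-1 IKE replicates 2 and 4, and MT-ATP6 -0.185 without CFPAC-1 DMSO replicate 2 (leave-one-out range -0.185 to 1.134); the cause was not tested. Quantile normalization moved the median of all genes in PANC-1 against CFPAC-1 from -0.028 to 0.103. Another setting scaled every library to the same fixed sum over all genes but the 6. The mean summed level of the 6 in PANC-1 DMSO, 33177 FPKM, then read 26880. It read 1392.9 in CFPAC-1 DMSO (1756.4 FPKM before), 2032.9 in CFPAC-1 IKE (2506.1 FPKM) and 108432.5 in PANC-1 IKE (125531 FPKM). The rescaled values are not in FPKM, so the lower numbers in every group do not show a fall in level. The PANC-1 IKE sum was 95610 to 149096 FPKM over fits that left out a library, from 125531. Replicate numbers are shared between groups. Deviations of same-numbered libraries from their group means correlated at 0.049 in CFPAC-1 and at -0.169 and -0.163 in PANC-1. In a group of 2 libraries the deviations mirror each other. These values therefore cannot show whether same-numbered libraries were prepared together. With the replicate block the count of calls was again 0, 0, 0 and 6, and MT-CYB in PANC-1 had an adjusted p of 0.32 against 0.197. Over all genes the number called ranged from 0 to 54 for IKE in CFPAC-1 (1 in the fit reported), 0 to 7 in PANC-1 (2), 0 to 5 for the difference (4) and 2474 to 5856 for PANC-1 against CFPAC-1 (4410). Depth is 1 limit on the PANC-1 values: IKE replicates 2 and 4 had 0.24 and 0.21 of the depth of the first CFPAC-1 library.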

Other observations

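Multiplying FPKM by the RefSeq length gives the part of all mapped fragments that a gene would hold if the authors had used these lengths, which the files do not state. On that basis the 6 genes held 0.136% and 0.231% of fragments in CFPAC-1 DMSO, 0.208% and 0.315% in CFPAC-1 IKE, 2.85% and 3.56% in PANC-1 DMSO, and 4.78%, 12.2%, 8.42% and 19.2% in PANC-1 IKE replicates 1 to 4. In IKE replicate 4, MT-CO2 alone would hold 7.35% and MT-CO1, a longer gene, 6.57%, while MT-ATP8 would hold 0.166%.

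MT-CO1 and MT-ATP8 stood high in CFPAC-1 relative to the other 4 genes. With DMSO, MT-CO1 over MT-CO3 averaged 10.5 in CFPAC-1 and 2.29 in PANC-1, MT-CO1 over MT-CYB 8.88 and 2.80, and MT-CO1 over MT-ATP6 24.4 and 5.95. MT-CO1 over MT-ATP8 averaged 2.16 and 2.65. In CFPAC-1 MT-CO1 held 51.7% and 51.1% of the summed FPKM of the 6 genes with DMSO, against 32.2% and 31.6% in PANC-1. These ratios were picked after their values had been seen, and what sets them was not tested.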
